A study of Mus musculus with 4 samples.

Results

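House dust mite (HDM) treated skin was compared with naive skin in wild-type (WT) adult C57BL/6 mice, with 1 library on each side, and the difference was followed through every family of expressed genes and not the skin markers alone. The naive group carried sodium dodecyl sulfate (SDS), a detergent that strips the skin barrier, as its treatment label. The HDM group received SDS and then 100 mg of a cream with mite extract, 2 times per week for 3 weeks. The naive group was recorded with the same schedule, without the cream. RNA came from the skin (500 ng per library, QuantSeq 3′ kit), and the labels do not say how many mice a library held. A gene entered when its deposited log2 value reached 8 in at least 1 of both libraries and its symbol stood on a single row of the table. That kept 7355 of 23203 symbols, 31.7%. Just inside the minimum lay Vipas39, at 6.833 in naive and 8.002 in HDM skin, and Rpp38, at 7.905 and 8.002, and just outside lay Plxnd1, at 7.991 and 7.997, and Pgm3, at 7.997 and 7.268. A second pair of libraries, naive and HDM skin of mice labelled Egr1 knockout (KO), was prepared in the same way and shares no library with the WT pair. Its values are given for side by side reading only, and those mice are called KO-labelled because Egr1 was not lower in their libraries (11.53 and 11.68 in KO-labelled naive and HDM skin, 11.02 and 10.31 in WT).

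House dust mites carry proteases, chitin and lipids that reach the living epidermis once detergent has opened the barrier. Keratinocytes move upward from a basal layer through a suprabasal layer into a cornified layer held together by cross-linked envelope proteins, and in wounded or inflamed skin they switch to a set of stress keratins, alarmins and antimicrobial proteins. The dermis below holds fibroblasts, vessels, nerves with their Schwann cells and resident macrophages and mast cells, and follicles and sebaceous glands pass through both layers.

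Both libraries were of like depth, the naive library with 9612070 recovered reads over 15524 genes and the HDM library with 9444989 over 16512. They differed in other ways too. Sex-linked transcripts split them: Xist, the RNA of the inactive X chromosome, had 10 reads in the naive library and 2195 in the HDM library, and the Y-linked helicase gene Ddx3y had 1925 and 1. Of 205 kept X-linked genes 23 stood higher and 32 lower past 2-fold (median -0.10), and both kept Y-linked genes were lower. Ribosomal RNA (Rn45s) took 1.80% of naive and 4.81% of HDM reads. A list of 31 secretory genes of salivary and lacrimal glands took 7.64% of naive and 0.0127% of HDM reads, and globin and other erythrocyte genes took 0.353% and 0.806%. In the KO-labelled pair Xist had 40 reads in the naive and 2432 in the HDM library, and Ddx3y had 2430 and 1. Sex-linked transcripts thus split both pairs in the same direction. The part of these differences in the results below was not tested. With 1 library a side there is no replicate check: each value compares these libraries, not the conditions, and the exact 95% intervals (Clopper-Pearson) given for ratios cover counting error only. In whole skin, fewer cells of a type and less RNA per cell cannot be told apart.

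Of the kept genes 27.7% passed 2-fold, which is a difference of 1 in log2 values: 1111 (15.1%) stood higher in the HDM library and 924 (12.6%) stood lower. The other 5320 (72.3%) lay between. Higher and lower mean past this limit from here on, and every count of list members stands against these background shares. The median difference was 0.06 on the log2 scale, with quartiles of -0.53 and 0.65. Differences of 16-fold or more were found in 102 genes upward and 38 downward. Of the higher genes 484 reached the level minimum in both libraries, and the others reached it in HDM skin alone; of the lower genes 426 reached it in both. The plot of all kept genes shows the high arm with S100a8, Krt6a and Sprr2d and the low arm of the secretory genes Bpifa2, Smr3a and Pip.

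**Figure D1:**
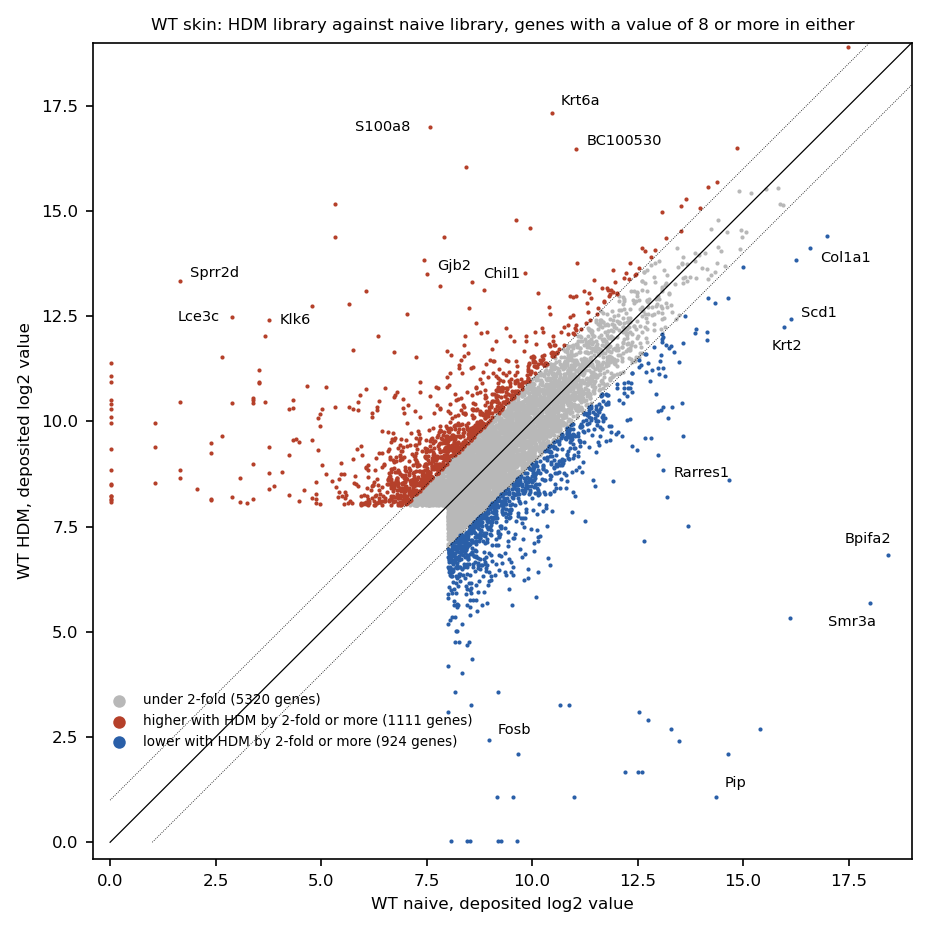
Deposited log2 value of 7355 kept genes in WT naive (x axis) and WT HDM skin (y axis), 1 library each; the solid line marks equal values, the dotted lines 2-fold. The 1111 higher genes (red) include a column at 0 reads in naive skin on the left edge, and the 924 lower genes (blue) include secretory genes with values above 16 in naive skin.

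The 250 bases before the start site are shown for 6 genes. Sprr2d, Sprr2e, S100a8 and Lce3c are among the 15 with the largest differences upward and Pip among the 15 downward. Lce1m, whose difference was -3.63, is shown beside its relative Lce3c because it differed in the opposite direction. The sequences are RefSeq promoters of build GRCm38.p6, written 5′ to 3′ on the strand of the gene. They lie at chr3:92338890-92339139 (plus strand, Sprr2d), chr3:92351893-92352142 (plus, Sprr2e), chr3:90668821-90669070 (plus, S100a8), chr3:92944236-92944485 (plus, Lce3c), chr3:93019062-93019311 (minus, Lce1m) and chr6:41847299-41847548 (plus, Pip). Capitals mark matches on either strand to the TATA box (TATAAA) or the AP-1 motif (TGANTCA); the GC box (GGGCGG) and E-box (CACGTG) were searched as well. No match overlaps another in these 6 sequences.
Sprr2d: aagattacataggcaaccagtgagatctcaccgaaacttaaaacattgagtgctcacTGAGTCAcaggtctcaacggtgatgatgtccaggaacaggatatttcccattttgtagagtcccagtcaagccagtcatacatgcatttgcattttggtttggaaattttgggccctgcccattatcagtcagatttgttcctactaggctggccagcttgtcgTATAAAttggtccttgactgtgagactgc
Sprr2e: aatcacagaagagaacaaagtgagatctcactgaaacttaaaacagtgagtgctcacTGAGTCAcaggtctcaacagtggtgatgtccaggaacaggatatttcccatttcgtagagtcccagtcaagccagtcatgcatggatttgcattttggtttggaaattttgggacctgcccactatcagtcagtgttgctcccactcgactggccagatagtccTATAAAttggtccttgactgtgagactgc
S100a8: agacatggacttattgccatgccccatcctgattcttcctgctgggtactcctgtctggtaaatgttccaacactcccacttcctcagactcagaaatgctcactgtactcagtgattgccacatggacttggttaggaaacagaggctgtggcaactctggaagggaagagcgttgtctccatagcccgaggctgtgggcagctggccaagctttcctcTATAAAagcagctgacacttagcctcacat
Lce3c: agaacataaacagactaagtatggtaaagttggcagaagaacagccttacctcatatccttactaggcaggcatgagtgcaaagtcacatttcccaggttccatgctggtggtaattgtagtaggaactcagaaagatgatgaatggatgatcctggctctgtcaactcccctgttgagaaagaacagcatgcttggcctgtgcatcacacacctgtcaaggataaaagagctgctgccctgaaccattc
Lce1m: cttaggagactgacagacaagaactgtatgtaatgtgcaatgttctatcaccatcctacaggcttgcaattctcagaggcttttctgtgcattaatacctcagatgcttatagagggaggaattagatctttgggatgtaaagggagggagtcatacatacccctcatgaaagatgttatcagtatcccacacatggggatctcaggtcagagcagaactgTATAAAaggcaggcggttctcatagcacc
Pip: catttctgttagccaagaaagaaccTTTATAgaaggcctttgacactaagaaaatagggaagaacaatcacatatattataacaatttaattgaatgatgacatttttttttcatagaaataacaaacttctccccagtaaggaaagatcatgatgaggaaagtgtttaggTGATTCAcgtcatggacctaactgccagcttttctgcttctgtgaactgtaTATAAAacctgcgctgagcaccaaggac

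Sprr2d and Sprr2e were identical at 220 of 250 positions (88.0%), and both held an AP-1 match that begins 193 bases before the start site and a TATA box 29 bases before it. Lce3c and Lce1m shared 64 positions (25.6%). Both pairs were compared position by position without alignment, so a shift between 2 sequences would lower the count. Of Lce3c and Lce1m only Lce1m held an exact TATAAA match, 29 bases before the start. In S100a8 the match began 30 bases before the start. Near variants of these letters were not searched. Over all genes with a promoter in the table, TATAAA was present in 40 of 79 genes that were higher by 16-fold or more (50.6%), in 10 of 34 that were lower by 16-fold or more (29.4%), in 6.10% of the 4081 genes within 2-fold and in 13% of all 27025 promoters. Over all genes past 2-fold the shares were smaller, 11.4% of 863 higher and 10.2% of 719 lower genes, against 7.42% of the 5663 kept genes with a promoter. The AP-1 letters were present in 17.7% and 11.8% of the genes past 16-fold upward and downward, in 4.12% of those within 2-fold and in 6.87% of all promoters, and in 7.42% and 5.42% of those past 2-fold upward and downward. In the same order the other motifs were present in these shares: the GC box in 17.7%, 14.7%, 63.7%, 32.9%, 54.9% and 56.1%, and the E-box in 7.59%, 8.82%, 8.97%, 6.05%, 7.76% and 7.93%. Many of the promoters at the upper end belong to neighbouring copies of a gene family, so they are not independent of each other, and a match of letters is a description and not a site.

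Of 99 lists and symbol families, 97 had enough kept members to describe, and their medians were 1 or more in 15, -1 or less in 11 and between in 71. The plot of list members sets 33 of them side by side. Lists of the epidermal stress response and of hair keratins and their associated proteins stood at the upper end, and lists of glands, nerve, cartilage and the clock at the lower end. Large housekeeping lists such as ribosomal proteins and complex I clustered tightly around 0.

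**Figure D2:**
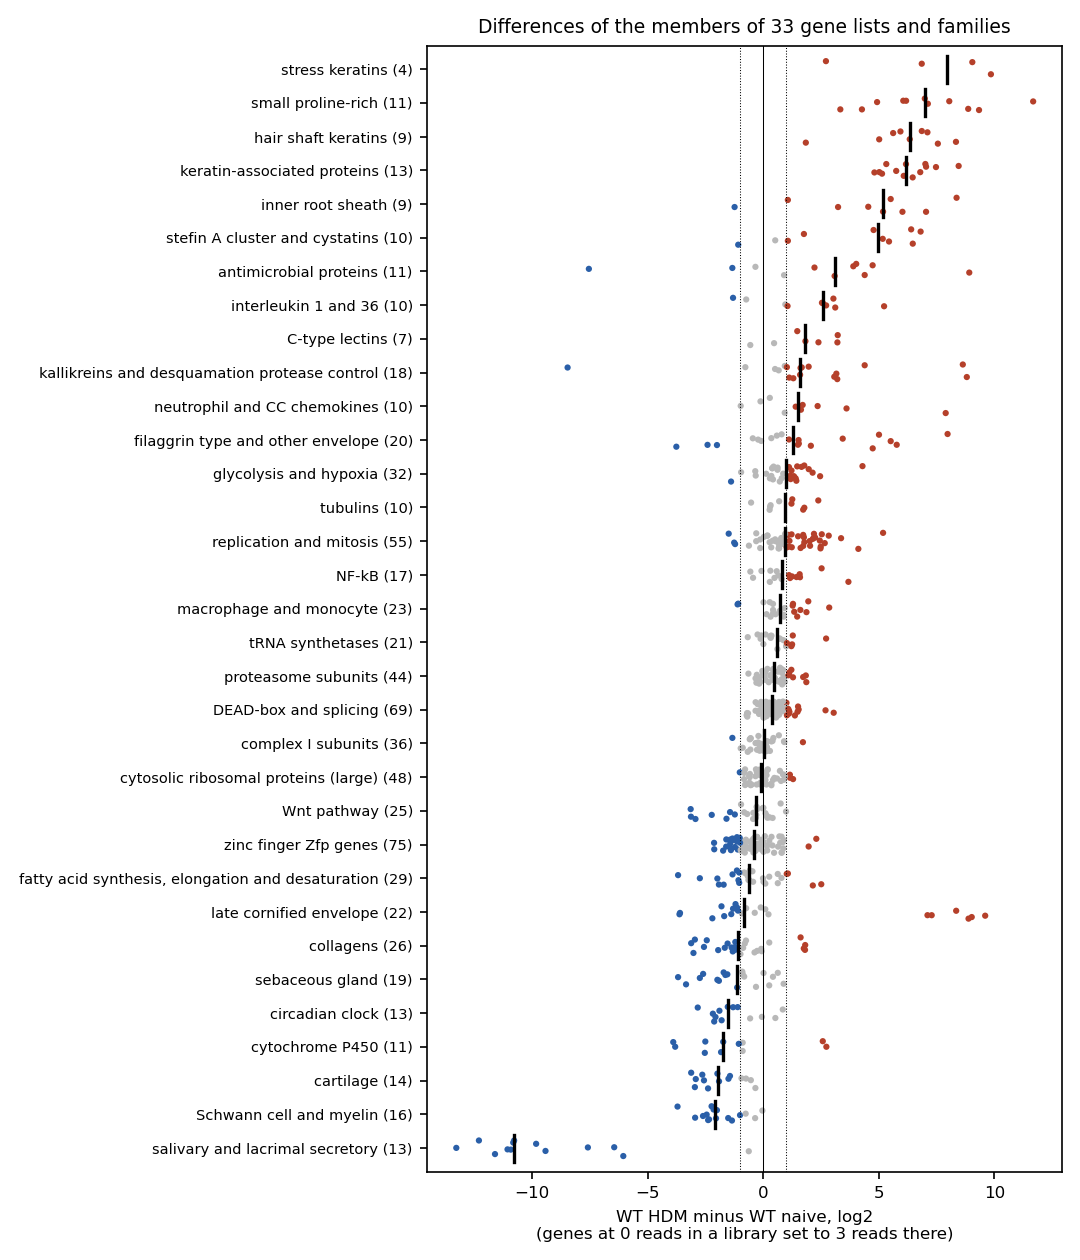
Log2 difference, WT HDM minus WT naive, of each kept member of 33 lists (points; red higher, blue lower, grey within 2-fold), with the list median as a black bar and the number of members in brackets; genes at 0 reads in a library are set to 3 reads there. Medians run from 7.95 for the stress keratins to -10.79 for the salivary and lacrimal list, and the late cornified envelope list splits into separate clouds.

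Stress keratins, which replace the usual keratins in wounded epidermis, were higher in 4 of 4 members, and their share of all reads went from 0.0358% in naive to 2.32% in HDM skin. Krt6a, which injury induces, stood at 10.47 in naive and 17.32 in HDM skin, the most abundant protein-coding gene of the HDM library, a ratio of 116 (110 to 122). Krt17, which the follicle also makes, went from 11.06 to 13.77. The basal keratin pair was higher by a smaller factor, Krt5 from 14.86 to 16.50 and Krt14 from 13.65 to 15.28. The anchors of basal cells did not share that direction: of 15 basal keratin and hemidesmosome genes 3 were higher and 5 lower, with Krt15, a keratin of resting basal and bulge cells, at 13.31 and 10.34, the plakin gene Dst at 13.49 and 11.41, and Col17a1, the transmembrane collagen of hemidesmosomes, at 11.62 and 9.66.

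Suprabasal keratins parted. Krt1 stood at 9.96 and 14.59, 24.8-fold higher (23.2 to 26.5), while its partner Krt10 stood at 13.52 and 14.53, a difference of 1.01 that falls under 2-fold once all differences are centred on their median. Krt2, a keratin of the upper epidermis, was lower, at 15.98 and 12.24. Desmosome genes, whose products rivet keratinocytes to each other, had 5 of 13 members higher and 0 lower, with a median of 0.73. Desmoplakin (Dsp), which ties keratins to the plaque, stood at 12.68 and 14.04, the basal cadherin gene Dsg3 at 6.59 and 8.63 and the suprabasal cadherin gene Dsc1 at 9.45 and 11.17, while Perp stood at 13.96 and 13.95.

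Connexin genes, whose products form gap junctions between keratinocytes, differed in both directions. Gjb2 stood at 7.51 in naive and 13.50 in HDM skin, 63.8-fold higher (54.9 to 74.6), Gjb6 at 4.32 and 10.51, 76.5-fold higher (48.2 to 129), and Gja1 at 8.68 and 12.33, 12.6-fold higher (11.4 to 14.02). Gjb5 went the other way, from 9.11 to 6.36. All 4 differences had the same sign in the KO-labelled pair, at 7.41, 9.66, 3.96 and -2.99. Tight junction genes were mixed too: Cldn1, the main claudin of the epidermal barrier, stood at 9.83 and 10.93 and Cldn23 at 8.22 and 6.28. Over the whole list of tight junction genes and connexins 6 of 14 were higher and 4 lower.

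The epidermal differentiation complex, a cluster of envelope and S100 genes on chromosome 3, had 53 kept genes in the HDM comparison, 27 higher, 13 lower and 13 between, with genes of like direction side by side. All 11 kept small proline-rich genes, of 16 listed, were higher (median 6.99). With Prr9 they form 1 run of 12 kept genes from 92122204 to 92485881 (GRCm38). Runs and neighbours, here and below, are of kept genes in chromosomal order, so genes under the level minimum can lie between them. Small proline-rich genes encode bridging proteins of reinforced envelopes. Sprr2d had 2 reads in the naive library and 9520 in the HDM library and Sprr2e 0 and 2494, at least 849-fold higher, while Sprr1a stood at 8.78 and 12.11. A run of 6 late cornified envelope genes of group 3, from 92925287 to 92993426, was higher with a median of 9.99, and 4 of its genes (Lce3a, Lce3b, Lce3e and Lce3f) had 0 reads in the naive library and 1821, 2003, 602 and 1256 in HDM skin. Between both runs lay 6 neighbours, Lce6a to Lce1d, from 92604821 to 92687210, all lower, with a median of -1.35. Of the 22 late envelope genes together 6 were higher and 10 lower, so that the list median of -0.84 describes neither group. Lce1m stood at 10.38 and 6.75, Lce1l at 11.25 and 7.64 and Lce1c at 12.24 and 10.03. Sprr2, Lce3 and Lce1 genes are near-identical copies, so reads could be shared among neighbours and single values are uncertain.

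**Figure D3:**
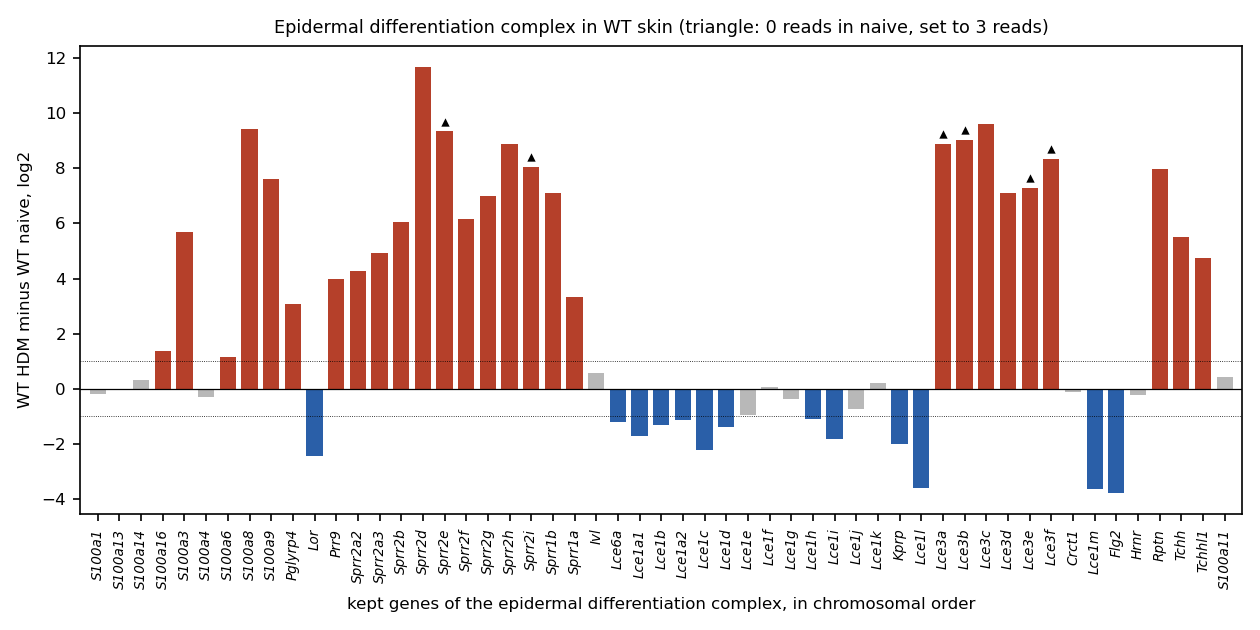
Log2 difference, WT HDM minus WT naive (y axis), of the 53 kept genes of the epidermal differentiation complex in chromosomal order (x axis); bars start at 0 and dotted lines mark 2-fold. Sprr genes and the Lce3 block form high runs, the Lce1 block and Lor, Kprp and Flg2 lie below 0, and triangles mark genes at 0 reads in naive skin, drawn from 3 reads.

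Within the same complex the S100 genes ranged widely. The calprotectin genes S100a8 and S100a9, made by neutrophils and stressed keratinocytes, had 179 reads in naive against 121610 with HDM and 325 against 63036, and the 15 listed S100 genes together took 0.486% of naive and 2.57% of HDM reads. S100a3, a hair cuticle gene, stood at 5.12 and 10.81, while S100a14 stood at 13.57 and 13.89. Among filaggrin-type and other envelope genes 11 of 20 were higher and 3 lower. Repetin (Rptn) stood at 4.78 and 12.75, and trichohyalin (Tchh), which fills the inner root sheath, at 7.03 and 12.54. Padi3, an enzyme that converts arginines of these proteins to citrulline, had 4 reads in the naive library and 265 in the HDM library, 67.6-fold higher (26.1 to 250). The 3 lower members were the abundant envelope genes of normal skin, loricrin (Lor) at 16.25 and 13.83, Kprp at 14.13 and 12.12 and Flg2 at 12.97 and 9.21. The late protease gene Asprv1, whose product trims filaggrin, stood at 14.09 and 13.99.

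Most kept desquamation proteases and stefins were higher, and most clade B serpins lay within 2-fold. On chromosome 7 a run of 8 genes, Vsig10l and 7 kallikreins from Klk13 to Klk6 (43462845 to 43832027), was higher with a median of 3.11, and 13 of 18 desquamation genes were higher in all. Klk13 had 2 reads in the naive library and 1300 in the HDM library, 664-fold higher (183 to 5485), and Klk7, the chymotrypsin-like protease of the cornified layer, stood at 13.52 and 15.11. The inhibitor gene Spink5, whose product holds these proteases in check, stood at 12.53 and 13.65. Klk1, the kallikrein of salivary glands, was the only lower member, with 709 reads in the naive library and 1 in the HDM library. Stefins, inhibitors of cysteine proteases such as those of mites, were among the highest of all lists, with 8 of 10 members of the stefin and cystatin list higher and a median of 4.97. BC100530 stood at 11.03 and 16.47, Stfa1 at 7.91 and 14.37 and Stfa2 at 3.66 and 10.47; these are close copies of each other. Cst3 (cystatin C) was lower, at 13.10 and 12.01. Clade B serpins did not share the pattern: 1 of 9 was higher, Serpinb12 at 6.33 and 10.26, and 2 were lower, Serpinb7 at 8.46 and 7.03 and Serpinb2 at 9.72 and 8.59.

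Transcription factors of keratinocytes had 6 of 19 members higher and 1 lower (median 0.69). Ehf, an epithelial ETS factor, stood at 7.83 and 10.31, Hr (hairless) at 7.11 and 9.44 and Ovol1, a repressor active as cells leave the basal layer, at 9.30 and 11.14. Gata3 was lower, at 12.53 and 11.28, and Klf4, a barrier factor, stood at 12.83 and 12.52.

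Kept structural genes of the hair shaft and the inner root sheath were higher with 1 exception, the factor gene Gata3 (above) of the root sheath list. All 9 kept hair shaft keratins (median 6.33), all 13 keratin-associated proteins (median 7.04, or 6.17 with genes at 0 reads set to 3 reads) and 8 of 9 inner root sheath genes (median 5.18) were higher. They lie in runs of neighbours: 14 genes on chromosome 11 from 99550132 to 100096224 with a median of 7.33, 8 type II keratin genes on chromosome 15 from 101459061 to 101802360 with a median of 6.13, and 7 keratin-associated protein genes on chromosome 16 from 88646824 to 89571183 with a median of 7.04. Genes enter through the library where they are high, so the counts of kept members above are a description. Of 53 deposited keratin-associated protein genes 13 were kept, and 33 had 0 reads in the naive library. The median over all 53 was 5.43. Over all 15 deposited hair shaft keratins it was 5.93, and over all 12 root sheath genes 3.89. Krtap11-1 had 0 reads in the naive library and 1353 in the HDM library, at least 460-fold higher, and the root sheath keratin gene Krt25 stood at 6.05 and 13.10. Regulators of the follicle were mixed, with 7 of 16 higher and 4 lower. Msx2 and Foxn1, factors of the hair matrix, stood at 6.59 and 8.504 and at 6.57 and 8.31. Lrig1 and Cd34, which mark stem cell pools of the resting follicle, stood at 9.10 and 7.70 and at 13.08 and 11.95. Cd34 is in the matrix and fibroblast list too. The lowest of these regulators was the factor gene Foxq1, with a difference of -1.58. The treated area was shaved, per the labels, and the hair cycle stage of either library is not given in the sources used here; its part in these values was not tested. Keratin-associated protein genes share long stretches with each other, and their single values are uncertain.

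Transcripts of glands stood lower in the HDM library. Of 19 sebaceous genes, which make the lipids of sebum, 10 were lower and 0 higher (median -1.14), and the list took 1.15% of naive and 0.261% of HDM reads. Scd1, a desaturase, stood at 16.13 and 12.44, Cidea, a lipid droplet gene, at 11.92 and 8.58 and the elongase gene Elovl6 at 13.10 and 10.35. In the KO-labelled pair the list median was 0.23, with Cidea at a difference of 0.23 and Elovl3, also an elongase, at 2.05 against -1.99 in WT. Salivary and lacrimal genes were lower in 12 of 13 kept members (median -10.79). Bpifa2, an antibacterial protein of saliva, had 336363 reads in the naive library and 104 in the HDM library and was the most abundant gene of the naive library. Amy1, the salivary amylase gene, had 66711 and 36. Genes outside the list that were far lower too were Chia1, an acidic chitinase gene, with 40725 and 5 reads, BC037156, with 24165 and 3, and 2310057J18Rik, with 9486 and 5. The share of the list in the naive libraries also differed, 7.64% in WT and 0.888% in KO-labelled skin. The lowest of the antimicrobial genes, Defb8, had 752 reads in the naive library and 0 in the HDM library, at least 246-fold lower, and 0 and 5 in the KO-labelled pair.

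**Figure D4:**
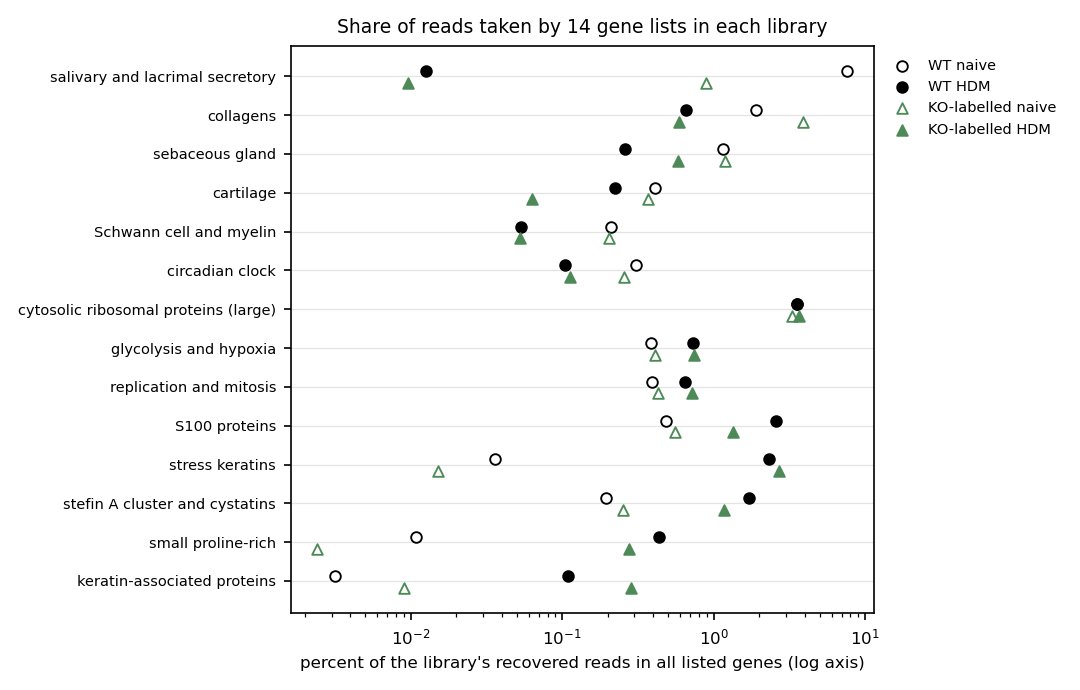
Share of each library's recovered reads, in percent on a log axis, taken by 14 gene lists; circles are WT and triangles KO-labelled skin, open for naive and filled for HDM, 1 library each. The salivary list stands at 7.64% in WT naive and 0.0127% in WT HDM skin, while the stress keratins stand at 0.0358% and 2.32% and the large-subunit ribosomal proteins at 3.53% and 3.56%.

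Alarm and defence genes were mostly higher. In the interleukin 1 and 36 list 7 of 10 members were higher and 1 lower (median 2.56). Among the ligands Il1f6 (an interleukin 36 agonist) stood at 4.32 and 9.55, Il1f9 (a relative of it) at 6.69 and 9.72 and the alarmin gene Il33 at 7.13 and 9.72. The antagonist gene Il1rn was higher as well, at 7.71 and 10.83, and the decoy receptor gene Il1r2 was lower, at 9.95 and 8.64. Antimicrobial genes had 7 of 11 members higher and 2 lower (median 3.08): the beta-defensin gene Defb3 had 1 read in the naive library and 928 in the HDM library, 947-fold higher (170 to 37458), Slpi stood at 4.93 and 9.32, and the chitinase-like gene Chil1 stood at 8.58 and 13.31, 26.6-fold higher (23.9 to 29.6). Saa3, an acute phase gene of the interleukin 17 list, stood at 9.84 and 13.51.

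Chemokines had 6 of 10 members higher and 0 lower (median 1.51). Cxcl5, which attracts neutrophils, had 0 reads in the naive library and 917 in the HDM library, at least 312-fold higher, Ccl8 stood at 8.42 and 12.02, and Ccl27a, the chemokine that resting keratinocytes make, stood at 12.14 and 11.16. The scavenging receptor gene Ackr4 was lower, at 10.04 and 7.12. Sensors of mites and microbes had 4 of 9 members higher and 0 lower. The glucan receptor gene Clec7a stood at 5.54 and 8.76 and Clec4n, a receptor that binds mite glycans, at 5.43 and 8.64, with 40 and 369 reads, 9.42-fold higher (6.78 to 13.4). The adaptor gene Myd88 stood at 9.24 and 10.77. Clec4n belongs to a run of 5 higher neighbours on chromosome 6 (122921848 to 124330529, with Clec4a1, Clec4a3, Clec4a2 and Cd163, median 1.82), none of which was higher in the KO-labelled pair (median 0.18).

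Macrophage and monocyte genes had 8 of 23 members higher and 2 lower (median 0.71). The integrin gene Itgam stood at 6.12 and 8.97, the monocyte receptor gene Ccr2 at 8.04 and 9.99 and the mannose receptor gene Mrc1 at 8.89 and 10.75, while Lgals3 stood at 11.66 and 11.67 and Gpnmb at 11.76 and 10.64. In the KO-labelled pair 0 of the 23 were higher and 9 lower (median -0.92). The level in naive skin differed between genotypes: Itgam stood at 8.64 and Ccr2 at 8.55 in KO-labelled naive skin. Complement and coagulation genes had 9 of 21 higher and 2 lower, among them the thrombomodulin gene Thbd at 7.57 and 9.53 and the thrombin receptor gene F2r at 7.54 and 9.08. Beside both lists, erythrocyte genes had 3 of 6 higher (median 0.92) and Hba-a1 at 14.18 and 15.57; their part was not tested.

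Genes of antigen presentation differed by class. For class I, 4 of 10 were higher and 1 lower, with the peptide transporter gene Tap2 at 6.05 and 8.90 and the heavy chain gene H2-D1 at 11.79 and 13.13. For class II and Langerhans cells 0 of 7 were higher and 1 lower, Cd74 at 13.18 and 11.80. Only 4 of 22 deposited lymphoid genes were kept, 0 of them higher and 3 lower. Gata3 and Rora among these are made by keratinocytes too, and Thy1 stood at 12.33 and 10.92. Over all 22 the median difference was 0.46, and 5 had 0 reads in the naive library and 1 in the HDM library. The kept members thus give no direction for lymphoid genes. Foxp3, of regulatory T cells, stood at 8.003 and 7.947. Mast cell genes had 1 of 6 higher and 3 lower: the IgE receptor chain gene Ms4a2 stood at 8.15 and 5.72 and the chymase gene Mcpt4 at 11.74 and 10.40, while Hdc, which makes histamine, stood at 8.36 and 9.66. Of 10 eosinophil genes none reached the level minimum, and 4 of them were at 0 reads in the naive library and 3 of them in the HDM library. Interferon-induced genes had 1 of 7 higher and 2 lower, out of 50 listed.

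Type 2 genes had 3 of 6 kept members higher and 1 lower, from a list of 29. The receptor gene Il4ra stood at 6.66 and 9.51, Arg1 at 6.29 and 8.84 and Retnla, a marker of alternatively activated macrophages, at 8.67 and 5.75. Downstream of cytokine receptors, 5 of 19 JAK-STAT genes were higher and 0 lower. Stat3 itself stood at 10.23 and 12.21, 3.97-fold higher (3.71 to 4.24), and its feedback inhibitor gene Socs3 at 8.06 and 11.15. In the KO-labelled pair the Stat3 difference was 0.39. Of 17 genes of NF-kB, 8 were higher and 0 lower, with Tnfaip2 at 7.99 and 11.67, Bcl3, a nuclear partner of NF-kB subunits, at 7.67 and 10.19 and the inhibitor gene Nfkbia at 13.02 and 13.81.

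Growth factor pathways held members in both directions. In the EGF receptor family the receptor gene Egfr stood at 6.68 and 8.88, the ligand genes Hbegf and Epgn at 6.87 and 9.44 and at 6.68 and 9.58, and the feedback inhibitor genes Spry2 and Lrig1 were lower, at 10.64 and 9.05 and at 9.10 and 7.70. Immediate early genes split, 3 of 25 higher and 4 lower: Fos stood at 9.15 and 6.60 and Fosb had 477 reads in the naive library and 4 in the HDM library, while their partner gene Junb stood at 9.94 and 11.35. Wnt pathway genes had 0 of 25 higher and 7 lower. The secreted antagonist genes Frzb and Wif1 stood at 12.48 and 9.33 and at 13.56 and 10.43, the agonist gene Rspo3 at 8.54 and 5.60 and the effector gene Ctnnb1 at 12.46 and 12.86. In the TGF-beta and BMP list 5 of 32 were higher and 5 lower, with the BMP antagonist gene Nog lowest, at 8.57 and 4.35. Of the 5 kept FGF genes and receptors 3 were lower, among them Fgf18 at 8.11 and 5.36, and Irs1, the insulin receptor substrate gene, stood at 9.23 and 6.46. Notch genes had 1 of 13 in each direction.

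Clock genes were lower in 9 of 13 kept members, with 0 higher and a median of -1.54, against a background of 12.6% lower. The output factors Dbp, Hlf and Tef, which bind the same sites, stood at 11.11 and 8.93, at 9.82 and 7.69 and at 13.14 and 11.07, and the repressor gene Bhlhe41 at 10.35 and 7.51. Nr1d2, of the stabilising loop, stood at 11.69 and 10.15, and the kinase gene Csnk1d at 10.38 and 10.31. The KO-labelled pair had 6 lower and 1 higher (median -0.94). The hour at which skin was taken is not given in the sources used here, and its part was not tested. Among glucocorticoid response genes 4 of 12 were higher and 4 lower: Klf9, also an output of the clock, stood at 11.17 and 8.80, the receptor gene Nr3c1 at 10.56 and 8.97 and the metallothionein gene Mt2 at 11.23 and 13.09.

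Collagen genes were lower in more members than they were higher, and other matrix lists held members in both directions. The collagen list is not of the dermis alone. It holds Col9a1, Col9a2, Col9a3 and Col11a1, which the cartilage list below counts again, and Col17a1 of hemidesmosomes (above). Of 26 collagen genes 13 were lower and 4 higher (median -1.10), and collagens took 1.90% of naive and 0.655% of HDM reads. The fibril gene Col1a1 stood at 16.57 and 14.12 and Sparc, which binds collagen, at 16.99 and 14.41, while Col3a1 stood at 14.58 and 13.70. Among the 4 higher members were Col12a1 at 6.31 and 8.06, Col14a1 at 7.09 and 8.90 and Col18a1 at 8.04 and 9.85. Of 38 other matrix and fibroblast genes 6 were higher and 11 lower, with Mfap4 at 10.13 and 7.26, the hyaluronan receptor gene Cd44 at 9.92 and 11.40 and decorin (Dcn) at 15.08 and 14.49. Matrix proteases and inhibitors had 4 of 16 higher and 6 lower: Adamts15, which cuts proteoglycans, stood at 6.94 and 10.53, the stromelysin gene Mmp3 at 7.03 and 9.96 and the inhibitor gene Timp1 at 5.86 and 9.34. In the KO-labelled pair the Mmp3 difference was -0.70. Cartilage genes stood lower beside these, 10 of 14 lower and 0 higher (median -1.95), with Acan at 11.09 and 9.64 and Col9a3 at 10.13 and 7.16, while Sox9 stood at 12.71 and 12.37. Cream went on both neck and ears, and which of these gave the RNA is not stated in the labels; its part was not tested.

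Schwann cell and myelin genes were lower in 13 of 16 members, with 0 higher (median -2.10), and took 0.209% of naive and 0.0533% of HDM reads. The myelin protein gene Prx stood at 8.21 and 5.60, Sox10, a lineage factor shared with melanocytes, at 8.90 and 6.45, and the neurotrophin receptor gene Ngfr at 10.13 and 6.41. Melanocyte genes had 2 of 4 lower, Sox10 and the pigment gene Pmel at 11.49 and 10.16. Few neuronal genes reached the level minimum, 4 of 36: Ntrk2 stood at 9.59 and 7.33 and Stmn2, of growing axons, at 7.76 and 8.16. The nerve ligand gene Artn, on which the study was centred, had 0 reads in the naive library and 24 in the HDM library, below the level minimum. The guidance ligand genes Sema3d and Sema3b were lower, at 10.10 and 5.83 and at 8.34 and 5.19.

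Skeletal muscle genes had 4 of 41 higher and 7 lower (median -0.24), with Myl1 at 14.33 and 12.80 and Xirp2, of damaged or remodelling muscle, at 9.33 and 10.47. Adipocyte genes had 1 of 22 higher and 9 lower (median -0.91): the lipid uptake gene Cd36 stood at 10.70 and 8.97 and Retn at 9.85 and 7.84, and the higher member was Fabp5, at 12.33 and 13.77, which keratinocytes make too. Endothelial and lymphatic genes had 3 of 12 higher and 1 lower, with Vegfa at 8.17 and 9.82, the podoplanin gene Pdpn at 9.25 and 10.97, the vessel gene Pecam1 at 7.48 and 8.98 and Ramp2 at 10.59 and 8.94. Vegfa is in the glycolysis and hypoxia list too.

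Glycolysis and hypoxia genes were higher in 16 of 32 members and lower in 1 (median 0.98), and took 0.384% of naive and 0.732% of HDM reads. The lactate exporter gene Slc16a3 stood at 6.504 and 10.794, 19.8-fold higher (15.9 to 24.9), the mutase gene Pgam1 at 8.99 and 11.45 and the oxygen sensor gene Egln3 at 8.06 and 10.19. The abundant enzymes Aldoa and Pkm were higher by less, at 13.17 and 14.35 and at 11.85 and 13.02, and Ldhb was lower, at 9.29 and 7.89. The citrate cycle had 1 of 24 higher and 2 lower: Sdhd stood at 8.34 and 11.15 and Mdh1 at 13.04 and 11.44. Subunits of complex I (1 of 36 higher, 1 lower), complexes III and IV (2 of 23 in each direction) and ATP synthase (1 of 15 higher, 0 lower) lay within 2-fold almost throughout, with Ndufa8 at 8.20 and 9.91 the member of complex I with the largest difference. Fatty acid oxidation had 1 of 26 higher and 7 lower, with the peroxisomal gene Cat (catalase) at 10.325 and 8.003 and the nuclear receptor gene Ppard at 7.26 and 9.45.

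Genes of lipid synthesis held members in both directions. Of 29 genes of fatty acid synthesis, elongation and desaturation 4 were higher and 10 lower (median -0.60). Scd1, Elovl6 and Elovl3 (above) were among the lower members, while Elovl1 and Degs2, which serve the very long ceramides of the barrier, stood at 10.42 and 12.56 and at 6.49 and 8.99. Barrier ceramide and lipoxygenase genes had 12 of 26 higher and 5 lower. The ceramide synthase gene of the epidermal barrier, Cers3, stood at 7.81 and 10.29 and its relative Cers4, of sebaceous glands, at 12.97 and 10.24, and the lipoxygenase gene Alox12e was lower, at 10.05 and 6.93. Cholesterol synthesis had 4 of 23 higher and 5 lower, with Ebp at 9.38 and 11.09; no member was lower in the KO-labelled pair. Cytochrome P450 genes had 7 of 11 lower and 2 higher (median -1.74): Cyp2b10 stood at 9.53 and 5.63, Cyp2f2 at 11.61 and 9.87 and Cyp7b1, which breaks down oxysterols, at 6.12 and 8.85. Retinoid genes had 3 of 15 higher and 6 lower, with Rarres1 lowest, at 13.09 and 8.83, and the dehydrogenase gene Adh1 at 10.80 and 8.42.

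Redox and amino acid genes differed by member. In the NRF2 list 6 of 38 were higher and 6 lower (median 0.02). The cystine importer gene Slc7a11, which feeds glutathione synthesis, stood at 4.32 and 10.31, 66.9-fold higher (42.1 to 113), Gpx2 at 4.88 and 8.57 and Gsta4 at 8.08 and 11.58, while Mgst1, Gpx3 and Sod1 stood at 11.56 and 10.00, 12.17 and 10.68, and 12.58 and 11.33. Glutathione transferases had 4 of 12 lower, with Gsta4 the only higher member. Shmt2, a mitochondrial enzyme of one-carbon metabolism, stood at 6.59 and 9.73. Over all 108 kept solute carriers 25 were higher and 16 lower: the sodium-glucose transporter gene Slc5a1 stood at 7.25 and 11.53, 19.6-fold higher (16.6 to 23.4), the fructose transporter gene Slc2a5 at 9.35 and 6.88 and the sodium-calcium exchanger gene Slc8a3 at 9.54 and 6.53. Among aquaporins and carbonic anhydrases 2 of 9 were higher and 3 lower; Aqp3, the glycerol channel of keratinocytes, stood at 9.76 and 10.46, and Car6, a salivary enzyme, at 14.68 and 8.61.

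Cell division genes were higher in 27 of 55 members and lower in 3 (median 0.95). The mitotic genes Plk1 and Cenpa stood at 4.98 and 10.16 and at 5.75 and 9.11, and the 3 lower members, Cdkn1b, Cdkn1c and Ccnd2, hold inhibitors of cyclin-dependent kinases and a D-type cyclin. The histone genes Hist1h2ap and Hist1h2ao stood at 8.26 and 11.27 and at 7.23 and 10.25, and tubulins had 5 of 10 higher and 0 lower, with Tubb6 at 7.04 and 9.42.

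In the machinery of protein production and turnover most members lay within 2-fold. Proteasome subunits had 8 of 44 higher and 0 lower (median 0.46), translation factors 9 of 50 higher and 1 lower (0.32), RNA helicase and splicing genes 12 of 69 higher and 0 lower (0.38) and tRNA synthetases 5 of 21 higher and 0 lower (0.61). The background is 15.1% higher and 12.6% lower. The shares of higher members lay near it, except for the tRNA synthetases, where the share lay above it. The shares of lower members lay below the background in each of these lists. Eif6, which keeps ribosomal subunits apart, stood at 8.31 and 11.45, Ddx39 at 7.76 and 10.80, Hars at 6.62 and 9.33 and Psmc1 at 9.61 and 11.45. Ribosomal proteins of the large subunit had 3 of 48 higher and 1 lower (median -0.12) and of the small subunit 4 of 30 higher and 0 lower (median -0.06). Chaperones had 5 of 31 higher and 3 lower, with Hspb1 at 9.85 and 11.91 and the collagen chaperone gene Serpinh1 at 10.36 and 9.08, and the unfolded protein response had 8 of 23 higher and 2 lower, with Pdia3 at 8.83 and 11.18. Zinc finger genes of the Zfp series had 2 of 75 higher and 18 lower (median -0.43); Zfp521 stood at 8.86 and 6.72. In the KO-labelled pair 18 of those 75 were higher and 14 lower. Of 50 positional genes (HOX and relatives) 3 reached the level minimum, Meis1, Meis2 and Tbx15, and none differed by 2-fold.

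The KO-labelled pair was read on the same 7355 genes. Its naive library had 9950023 recovered reads over 12857 genes, the fewest genes of the 4 libraries, and its HDM library 10129020 over 16175. The part of this in the values of the pair was not tested. In that pair 1617 (22%) were higher and 982 (13.4%) lower with HDM, with a median of 0.15. Of the 1111 genes higher in WT 645 (58.1%) were higher in the KO-labelled pair and 19 lower, and of the 924 genes lower in WT 475 (51.4%) were lower there and 41 higher; 94 of the 1111 had 0 reads in KO-labelled naive skin. Genes of opposite direction included Krt10, at 1.01 in WT and -1.17 in the KO-labelled pair, Tnc at 1.17 and -1.27, Pf4 at 2.35 and -1.12, and Cyp2j12 at -3.82 and 6.60. The plot of 40 genes in 4 libraries shows genes whose naive level differed more between genotypes than the HDM level did: Itgam and Pf4 stood at 6.12 and 7.26 in WT naive skin and at 8.64 and 9.39 in KO-labelled naive skin, and at 8.97 and 9.61 against 8.03 and 8.27 with HDM. Both pairs share the split of sex-linked transcripts between naive and HDM skin, and its part in the differences they share was not tested. The difference between genotypes was not tested.

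**Figure D5:**
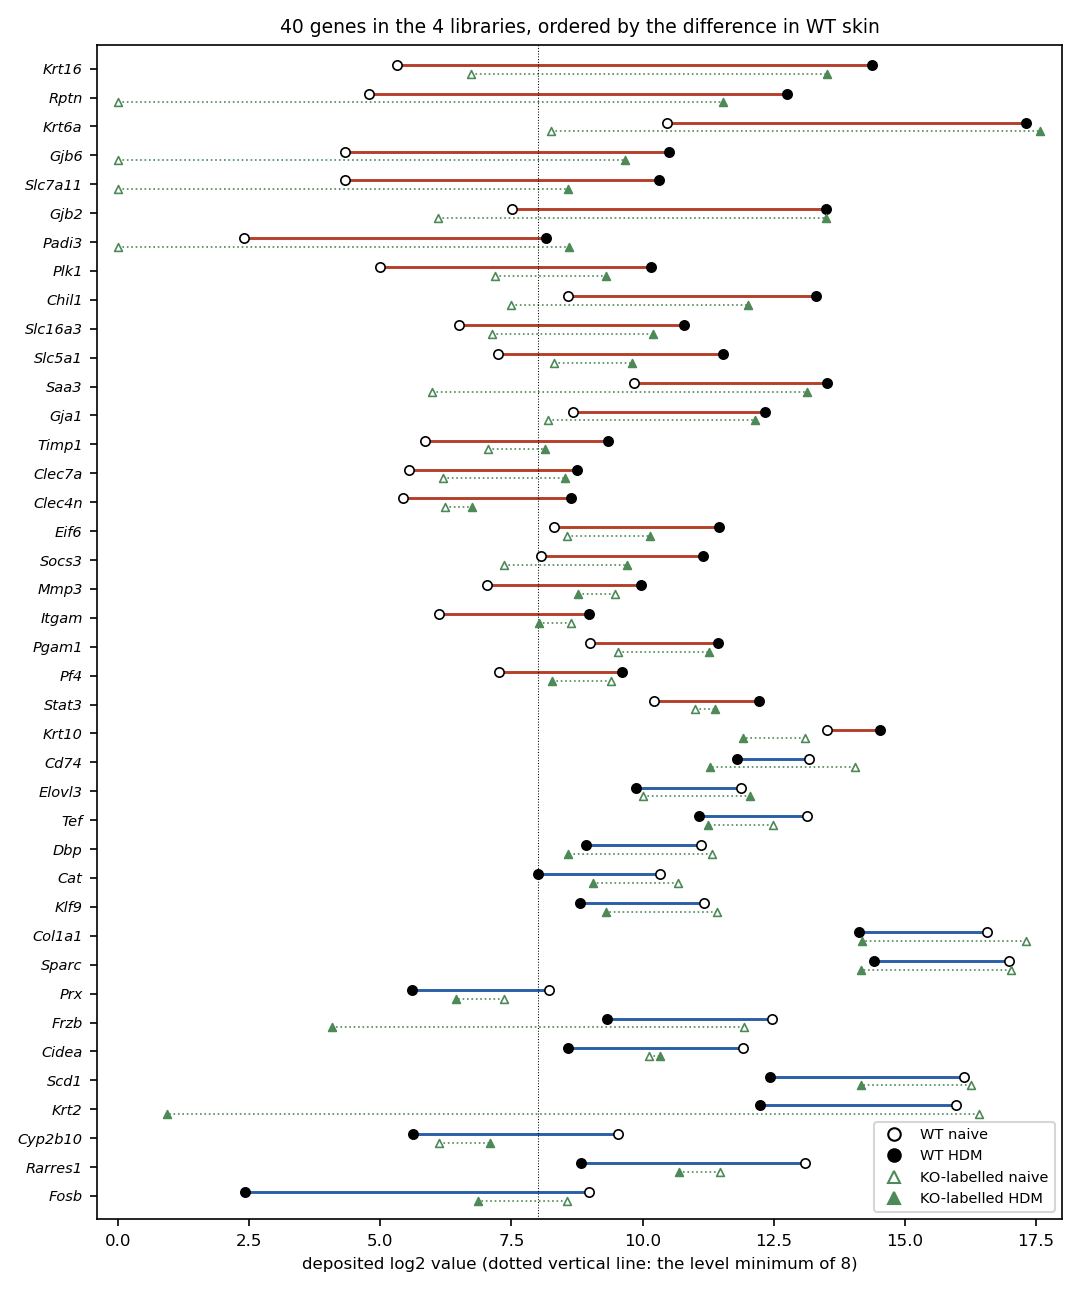
Deposited log2 value (x axis) of 40 genes (y axis) in each library, circles for WT and triangles for KO-labelled skin, open for naive and filled for HDM; lines join both libraries of a genotype, red where HDM is higher in WT, blue where lower, dotted green for KO-labelled skin. Genes are ordered by the WT difference, from 9.04 for Krt16 to -6.56 for Fosb, and the triangles of Mmp3, Itgam, Pf4, Krt10, Elovl3, Cidea and Cyp2b10 lie in the opposite order to the circles.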

How the data were processed

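Expression was measured by 3′ RNA sequencing in 4 skin libraries, 1 per group, of which WT naive and WT HDM were compared. The authors deposited a table of log2 values for 23282 rows per library, written with 3 decimals. The submitters' processing notes list Bowtie2, bedtools, and mm10 as the genome; how the values were normalized is not given in the sources used here. Undoing log2(x + 1) on the deposited log2 values gave multiples of 1 step per library (1.06 in WT naive, 1.08 in WT HDM). At or below 200 reads, 99.3% and 98.9% of genes gave whole numbers to within 0.1 read. Reads were recovered with this step, and above 200 they are approximate.

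Symbols on more than 1 row (35 symbols on 79 rows) were dropped, and genes with a log2 value of 8 or more in either library were kept. The difference of log2 values was called at 1. A gene at 0 reads was set to 3 reads for a bound ("at least N-fold"). Ratios of recovered reads have exact 95% intervals (Clopper-Pearson). No p-value was computed. Software was scipy 1.17.1, matplotlib 3.10.9, pandas 2.3.3 and numpy 2.4.6 under Python 3.11.15, with gene positions and promoters from RefSeq (GRCm38.p6); 7335 of 7355 genes had a position.

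Genes named in the text are the 15 with the largest difference in each direction, the 10 highest in each library, and, per list, the 3 with the largest difference in each direction and the 4 with the highest mean, with genes at the level minimum, Egr1, Artn, Xist and Ddx3y. A run was 5 or more kept genes in a row, in chromosomal order, past 2-fold in the same direction. Members of runs were named after their values were seen. The lists and members were chosen with earlier results of these data known. Alternatives were other level minima, thresholds, scalings and pseudocounts. A few genes are not reported here.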

Additional observations from a re-analysis of the deposited data

Results flagged for a closer look

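These results lay on opposite sides of 0 in the WT and the KO-labelled pair, and the difference between the pairs was not tested. Median log2 differences, HDM minus naive, in WT and KO-labelled skin were opposite for the lists suprabasal keratins (0.95 and -0.83), macrophage and monocyte (0.71 and -0.92), complement and coagulation (0.79 and -0.51) and erythrocyte (0.92 and -0.83). Among named genes past 2-fold in both pairs, the log2 differences in WT and KO-labelled skin were opposite for Cyp2j12 (-3.82 and 6.60), Elovl3 (-1.99 and 2.05), Foxq1 (-1.58 and 1.24), Hspa2 (-1.41 and 4.69), Igfbp2 (1.87 and -1.42), Krt10 (1.01 and -1.17), Mrc1 (1.86 and -1.02), Pf4 (2.35 and -1.12), Tnc (1.17 and -1.27) and Tnfrsf1a (1.24 and -1.15). The deposited difference of Defb8 was -9.59 in WT, with 752 reads in the naive library and 0 in the HDM library, and 0 and 5 reads in the KO-labelled pair. Cyp2j12 had 0 reads in KO-labelled naive skin and 102 in KO-labelled HDM skin.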

How the results depend on the processing

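No paired analysis was possible because each group held 1 library; leaving out a library was not possible for the same reason. With the level minimum at 9, 733 genes were higher and 574 lower, and with no minimum 3981 and 3041. With a 4-fold threshold 302 were higher and 225 lower, and with 1.5-fold 2023 and 1704. These counts follow from the number of genes kept or from the threshold itself. Where the mean of both libraries had to reach 8, 6258 genes were kept, 755 of them higher and 614 lower. That setting removes genes that reached 8 in 1 library and were low in the other. Its counts thus do not follow from the number of genes kept alone. Other scalings, a pseudocount of 16, a minimum of 7 and summing symbols on several rows kept both counts within 1.5 times (higher 1014 to 1525, lower 877 to 1291). Of 644 named genes 438 passed 2-fold, and 435, 436 and 432 did when centred on the median, scaled without the genes over 0.5% of a library, or with the larger pseudocount. None of the 438 changed sign under these settings; named genes nearer to 0 can, since centring moves every difference by -0.06. List medians past 1 numbered 26, and 24 with the larger pseudocount. Centring changed the sign of 3 list medians, none further from 0 than 0.054. Depth limits genes with few reads, and nothing here covers the spread between mice.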
